A study of Mus musculus with 55 samples.

Results

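The genes described here are 9 of the protein-coding genes of the mouse mitochondrial genome, mt-Nd1, mt-Nd2, mt-Nd4, mt-Nd5, mt-Co1, mt-Co2, mt-Co3, mt-Atp6 and mt-Cytb, chosen by their symbols and not by their values. They are 9 of the 37 genes of the mitochondrial genome and of 37620 genes quantified. RNA was taken from the livers of 55 male naive mice of 29 Collaborative Cross (CC) lines, which are inbred lines bred from intercrosses of 8 founder strains. A line had 1 mouse in 8 cases, 2 mice in 16 and 3 mice in 5, the mice were 8.0 to 11.9 weeks old, and lines are named by their labels (IL-2146 and so on) and mice by their number. Mice of 1 line had the same age except in IL-785, and the labels name no litter, batch or date, so a line and whatever conditions its mice shared cannot be told apart. The share of a gene is its estimated number of fragments as a percent of all fragments of the library. FPKM also divides by the length of the transcript and is used wherever the level of 1 gene is set against that of another.

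Mitochondria carry their own small circular genome, which is transcribed on both strands into long precursors, and transfer RNAs that lie between the genes are cut out to release the messenger RNAs. The released RNAs receive poly(A) tails inside the organelle and are translated there into core subunits of the respiratory chain and of the ATP synthase, whose other subunits are encoded in the nucleus and imported. Liver is rich in mitochondria, and the steady level of each messenger depends on transcription, processing and decay. In bulk tissue, fewer cells of a type and less RNA per cell cannot be told apart.

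All 9 genes are single uninterrupted stretches on the plus strand of chrM (NCBI build 37, 16299 bases). Some of the subunits of complex I, the NADH dehydrogenase, are encoded by mt-Nd1 (chrM:2751-3707), mt-Nd2 (chrM:3914-4951), mt-Nd4 (chrM:10167-11544) and mt-Nd5 (chrM:11742-13565). The apocytochrome b of complex III is encoded by mt-Cytb (chrM:14145-15288). The catalytic core of complex IV, the cytochrome c oxidase, is encoded by mt-Co1 (chrM:5328-6872), mt-Co2 (chrM:7013-7696) and mt-Co3 (chrM:8607-9390). A membrane subunit of the ATP synthase is encoded by mt-Atp6 (chrM:7927-8607). The 3′ ends are shown because these libraries were made from poly(A) RNA, and in mt-Co3, mt-Nd4 and mt-Cytb the gene ends with a lone T past the last whole codon (capital), which the tail completes to a stop codon. The gene mt-Co1 ends in a whole stop codon (capitals).
mt-Co3 (chrM:9366-9390): gtctccatttattgatgaggatctT
mt-Nd4 (chrM:11520-11544): aaactaattacaggcctgacaataT
mt-Cytb (chrM:15264-15288): gacaaaatactaaaattatatccaT
mt-Co1 (chrM:6846-6872): gaaccaacctatgtaaaagtaaaaTAA

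Stretches of the mitochondrial genome have been copied into the nuclear genome, and several copies are annotated as genes and so received estimated fragments of their own. In an alignment of transcripts, 6 of the 9 genes had a nuclear copy of at least 90% identity over at least 100 bases. The copy of mt-Co1, Gm13340, lies on the minus strand at chr2:22443623-22445167, covers all 1545 bases with 37 mismatches, and 27.5% of its windows of 50 bases, the read length, are identical to mt-Co1. Beside it lie Gm13341 (chr2:22442811-22443482), a copy of mt-Co2, and Gm13339 (chr2:22445544-22446053), a copy of 49.1% of mt-Nd2. On chromosome 4, Gm11410 (chr4:79649893-79651035) is 92.91% identical to mt-Cytb and has no identical window of 50 bases, and Gm11407 (chr4:79648235-79649292) is a copy of 57.9% of mt-Nd5. On chromosome 1, the annotated transcript of Gm10925 (chr1:24620814-24621627) aligned to mt-Atp6 with no mismatch and a single gap of 42 bases. A second, shorter copy of mt-Co1, Gm11512 on chromosome 11, received no fragment in 46 of 55 mice and at most 3 in the others. No annotated copy was found for mt-Nd1, mt-Co3 and mt-Nd4, and their estimates were whole numbers, within 0.005, in 55 of 55 mice. A stretch of 60 bases of 3 pairs is shown because reads can be told apart only at the bases in capitals, which differ within the pair.
mt-Co1 (chrM:5787-5846): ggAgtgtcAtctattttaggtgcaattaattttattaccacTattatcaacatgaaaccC
Gm13340 (chr2:22444649-22444708): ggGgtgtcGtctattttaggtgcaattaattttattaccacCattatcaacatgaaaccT
mt-Cytb (chrM:14970-15029): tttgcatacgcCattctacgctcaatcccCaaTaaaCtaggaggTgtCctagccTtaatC
Gm11410 (chr4:79650718-79650777): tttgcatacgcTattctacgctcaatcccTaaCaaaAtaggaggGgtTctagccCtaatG
mt-Atp6 (chrM:8020-8079): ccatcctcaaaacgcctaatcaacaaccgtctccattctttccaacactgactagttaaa
Gm10925 (chr1:24621338-24621397): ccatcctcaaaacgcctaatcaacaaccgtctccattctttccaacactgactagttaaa
The first pair differs at 4 bases of the stretch, the second at 8, and the third at 0. Because the fragments of such a pair are divided by the estimation, the tests on mt-Co1, mt-Co2, mt-Nd2, mt-Nd5, mt-Cytb or mt-Atp6 were also made with the fragments of the copies added to the gene they copy. In these tests and ratios mt-Atp6 also received the fragments of mt-Atp8, a mitochondrial gene that overlaps it and is partly covered by Gm10925. The summed share with the copies added leaves mt-Atp8 out. Levels and ranks by FPKM are as deposited unless stated.

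The libraries held 20542671 to 33953036 estimated fragments (median 27700357), so counting error is small, the widest 95% Wilson interval of a share of the 9 genes being 0.0229 percentage points. The hepatocyte markers, headed by Alb, which encodes albumin, were high in all livers, with a summed FPKM of 25899 to 84603. Summed FPKM ranged from 9.97 to 250 for 6 Kupffer and leukocyte markers, 6.5 to 208 for 5 cholangiocyte markers, 446 to 4528 for 5 erythroid markers and 34 to 168 for 4 gallbladder and gut markers. Some sums were mostly 1 gene, Spp1 (5.86 to 206) among the cholangiocyte markers and Fabp2 (32.0 to 165) among those of gallbladder and gut. The median pancreas sum given next was that of Cela1 (median 22.0). These sums therefore do not measure a cell type. Markers of neighbouring tissues were low in the median mouse and high in single mice, with a summed FPKM of up to 478 for pancreas (median 22.0), 19.3 for adipocytes (median 0.05) and 1326 for muscle (median 0.07). No marker was at 0 in all mice. There are 3 lines whose mice stand apart in the mitochondrial genes. Both mice of IL-2146 lie far below the others. In IL-1052 and IL-2750 the mice of 1 line differ from each other in the fragments given to the nuclear copies, as described beside those genes. There mouse 4303 of IL-1052 resembles 4430 of IL-2750. Mouse 4302 of IL-1052 resembles 4429 and 4431 of IL-2750 in most copies, though 4429 departs from both in Gm13341. Whether the line labels of these mice hold was not tested. Labels were kept as given, the means of these lines rest on them, and tests that changed without both lines are given without them as well. Leaving out lines whose mice disagree favours a higher intraclass correlation, so such a rise is no support for differences among the other lines.

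The 9 genes together took 0.744% of all fragments in the lowest mouse (4414, IL-2146), 6.38% in the median mouse and 8.21% in the highest (4469, IL-611). Over lines the mean share was 6.31% ± 1.29 (SD of 29 line means), against an SD within lines of 0.731 percentage points. The lowest line was IL-2146 at 1.91% ± 1.64 (SD, n = 2), from mice at 0.744% (95% Wilson interval 0.742 to 0.747) and 3.07% (3.063 to 3.075). The next were IL-1061 at 4.87% ± 0.226 (n = 2) and IL-1052 at 4.99% ± 0.787 (n = 2). The highest were IL-557 at 8.14% (n = 1), IL-611 at 8.04% ± 0.16 (n = 3) and IL-2689 at 7.86% (n = 1). Of the 28 gaps between neighbouring lines in this order, only that between IL-2146 and IL-1061, 2.97 percentage points, was larger than the SD within lines, and the next largest was 0.352. Apart from IL-2146, the line means thus form a continuous range. With this many lines in it, gaps between neighbours are small whether or not lines differ, so these gaps do not decide whether they do. The order below the middle depends on the nuclear copies. With them added, IL-2146 was again lowest at 1.98% ± 1.69 (n = 2), but IL-1061 stood at rank 8 of 29 with 6.47% ± 0.278 (n = 2), and the next lowest lines were IL-1052 at 5.84% ± 0.135 (n = 2) and IL-3438 at 5.93% ± 0.237 (n = 2). The 3 highest lines had the same order. The libraries of IL-2146 were not shallow, at 33953036 and 30878018 fragments.

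**Figure D1:**
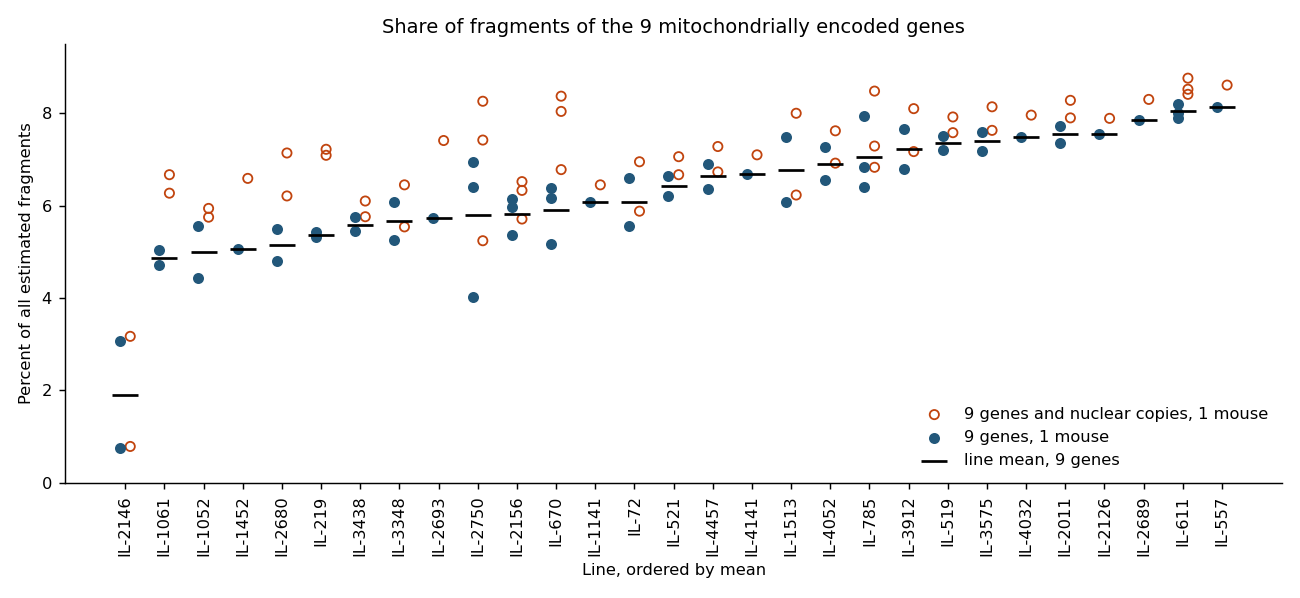
Percent of all estimated fragments taken by the 9 mitochondrially encoded genes (filled points, 1 per mouse), and by the 9 genes and their nuclear copies (open points), for 29 lines ordered by the mean of the 9 genes (bars). Both mice of IL-2146 lie below every other mouse, at 0.744% and 3.07%, and the other 53 mice span 4.03% to 8.21%.

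The resemblance of mice of the same line in this share depended on the scale. The intraclass correlation, the part of the variance of the normal scores of a trait that lies between lines, was 0.705 for the share of the 9 genes (p = 1e-05, one-sided permutation test, the smallest value possible with 100000 permutations of the labels). On log2 values without conversion to scores it was 0.575 and did not pass (p = 0.142, permutation test). On scores it was 0.788 without IL-1052 and IL-2750 (p = 1e-05, permutation test), whose mice disagree, and 0.61 without IL-2146 (p = 0.00038, permutation test). With the nuclear copies added it was 0.552 (p = 0.00134, permutation test), and with the copies added and IL-2146 left out 0.427 (p = 0.0134, permutation test). The range over the 53 mice outside IL-2146 was 2.04-fold for the 9 genes and 1.67-fold with the copies added. On the log2 scale the SD of the line means outside IL-2146 fell from 0.226 to 0.16 when the copies were added, while the SD within lines was 0.168 and 0.148.

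Per length, mt-Co1 was the most abundant and mt-Nd5 the least. The FPKM of mt-Co1, which encodes the subunit of complex IV that holds the site of oxygen reduction, was 1946 in the lowest mouse, 15984 in the median mouse and 20784 in the highest. Its partners in the same complex followed, mt-Co3 at 462, 12032 and 16819 and mt-Co2 at 2704, 11153 and 16847 (lowest, median and highest FPKM). The gene for cytochrome b, mt-Cytb, stood at 563, 6321 and 8551, and that for the ATP synthase subunit, mt-Atp6, at 215, 6273 and 8744.

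The complex I genes had the lowest FPKM. For mt-Nd1, a subunit of the membrane arm near the quinone site, it was 430, 4135 and 6300, and for mt-Nd4, a subunit of the proton-pumping part of that arm, 659, 4099 and 5512. The other pumping subunits were lower, mt-Nd2 at 297, 3816 and 5902 and mt-Nd5 at 122, 1613 and 2781. The lowest value of each of the 9 genes came from mouse 4414. In the order of median FPKM, 4 neighbouring pairs lay closer than the SD within lines of either gene, namely mt-Co3 and mt-Co2, mt-Cytb and mt-Atp6, mt-Nd1 and mt-Nd4, and mt-Nd4 and mt-Nd2. Within single mice the order was stable at its ends. Of the 9 genes, mt-Nd5 had the lowest FPKM in 54 of 55 mice. The highest was mt-Co1 in 41 mice, mt-Co3 in 13 and mt-Co2 in 1, and with the nuclear copies added (mt-Atp6 left aside) it was mt-Co1 in 54.

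**Figure D2:**
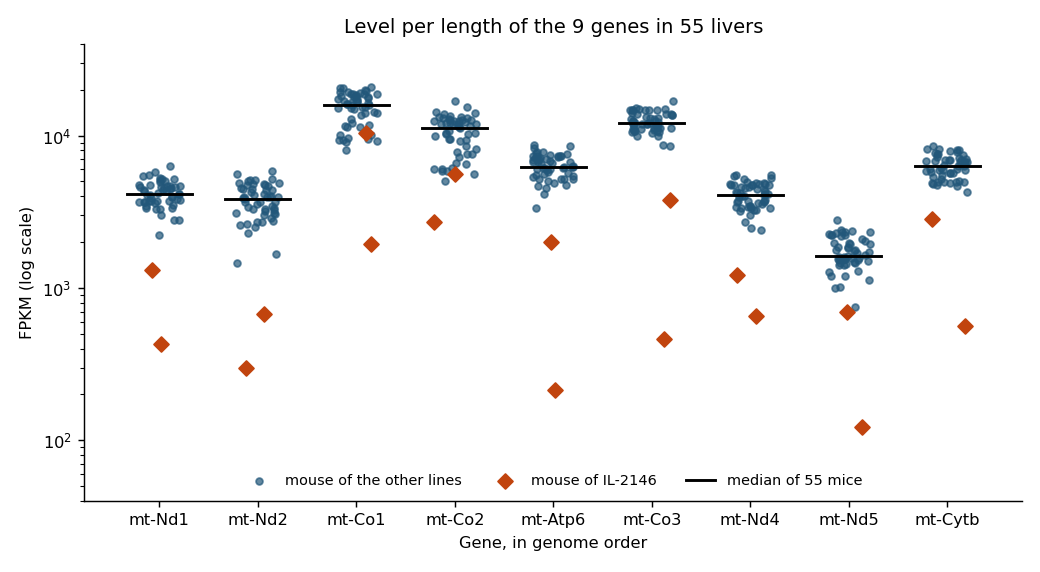
FPKM on a log scale of the 9 genes, in genome order, with 1 point per mouse and a bar at the median of 55 mice; diamonds are the mice of IL-2146. The medians run from 1613 for mt-Nd5 to 15984 for mt-Co1, and mouse 4414 of IL-2146 is the lowest point of every gene.

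These messengers were among the most abundant of the liver. By FPKM, mt-Co1 had a median rank of 6 among all genes, mt-Co3 of 9 and mt-Co2 of 10. The median ranks of mt-Atp6 and mt-Cytb were 19, and those of mt-Nd1, mt-Nd4 and mt-Nd2 were 29, 30 and 32. The median rank of mt-Nd5 was 56, and its rank in the mouse where it stood lowest was 661.

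All 9 genes differed among the lines when estimates were used as deposited. In edgeR's quasi-likelihood F test with Benjamini-Hochberg adjustment over all genes, on 47 mice from 21 lines (those of 2 or 3 mice), adjusted p was lowest for mt-Co2 (1.76e-05) and mt-Nd2 (5.53e-05) and highest for mt-Atp6 (0.0456). This count has to be read against the whole transcriptome, since 88.5% of the 15285 genes tested differed among lines as well. With the nuclear copies added the test called 8 of the 9 genes, against 88.4% of all genes, and mt-Co1 was no longer called (adjusted p = 0.0646, edgeR). Without IL-2146 it called 5 of 9, mt-Co1, mt-Co2, mt-Nd2, mt-Nd5 and mt-Cytb, against 83.6% of all genes. With both changes it called 3 of 9, against 83.8%, at adjusted p of 0.00569 for mt-Co1, 0.0309 for mt-Co2 and 0.000272 for mt-Cytb (edgeR). In the fits without IL-2146, the share of the 9 genes called was thus below that of all genes.

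The intraclass correlation of FPKM was 0.816 for mt-Co2, 0.738 for mt-Co1 and 0.725 for mt-Cytb (p = 1e-05 for each, one-sided permutation test). It was 0.674 for mt-Nd2 (p = 5e-05), 0.664 for mt-Co3 (p = 0.00011), 0.59 for mt-Nd1 (p = 0.0005) and 0.484 for mt-Nd5 (p = 0.00497) in the same permutation test. The lowest values were those of mt-Nd4, 0.418 (p = 0.0145, permutation test), and mt-Atp6, 0.383 (p = 0.0232, permutation test). These are 9 tests without adjustment. The median of the 9 genes, 0.664, stood beside a median of 0.592 (quartiles 0.486 and 0.693) over the 5949 variable genes treated the same way. Without IL-2146 the median of the 9 genes was 0.575 and that of all such genes 0.579, and mt-Atp6 (0.204, p = 0.157, permutation test) and mt-Nd4 (0.279, p = 0.0837, permutation test) no longer passed. Without IL-1052 and IL-2750, mt-Co2 reached 0.90 and mt-Co1 0.855 (p = 1e-05 for each, permutation test), a rise favoured by leaving out lines whose mice disagree. With the nuclear copies added it was 0.748 for mt-Co2, 0.723 for mt-Cytb, 0.681 for mt-Co1, 0.456 for mt-Nd5, 0.452 for mt-Nd2 and 0.343 for mt-Atp6 (p = 0.0388, permutation test), and all 9 genes passed. With IL-2146 left out as well, mt-Nd2 fell to 0.322 (p = 0.0524, permutation test), and mt-Nd2, mt-Nd4 and mt-Atp6 (0.16, p = 0.217) did not pass. On log2 values as deposited, mt-Co1, mt-Atp6, mt-Co3, mt-Nd5 and mt-Cytb did not pass (p of 0.0944 to 0.152, permutation test).

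The largest departure was that of IL-2146, in which all 9 genes were lower than in the mean of the other 20 lines. By share, mt-Co3 took 0.0336% and 0.274% of fragments in the mice of IL-2146 (4414 and 4415), where the next lowest mouse stood at 0.608%. The share of mt-Nd1 was 0.0387% and 0.118%, and that of mt-Atp6 0.0134% and 0.125%, the next lowest mice being at 0.198% and 0.208%. Neither mouse overlapped any mouse of another line for these 3 genes, nor for mt-Nd2, mt-Nd4, mt-Nd5 and mt-Cytb. For mt-Co2, mouse 4415 (0.347%) lay above mouse 4317 of IL-1061 (0.341%). How many of all genes set these 2 mice apart in this way was not counted, and 23.1% of all genes were lower in IL-2146 in the contrast below. The 2 mice also differ from each other, since mt-Co1 took 0.29% in 4414 and 1.55% in 4415, and the second of these lies above the lowest mouse of the other lines for mt-Co1 as deposited (1.18%, mouse 4302). With the copies added the lowest mouse of the other lines stood at 1.79%, above both mice of IL-2146.

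In the edgeR contrast of IL-2146 against the mean of the other lines, log2 fold changes ran from −2.91 (SE 0.337, adjusted p = 9.41e-08) for mt-Nd2 to −1.22 (SE 0.217, adjusted p = 3.95e-05) for mt-Co2. Another pumping subunit gene, mt-Nd4, was at −2.07 (SE 0.272, adjusted p = 6.63e-07, edgeR), and mt-Co1 at −1.22 (SE 0.303, adjusted p = 0.00146, edgeR). The remaining genes lay between, mt-Co3 at −2.46, mt-Atp6 at −2.43, mt-Nd1 at −2.20, mt-Nd5 at −2.03 and mt-Cytb at −1.83. These SE and p rest on a spread shared by all 21 lines and do not measure that between the 2 mice of IL-2146. Their share of the 9 genes had an SD of 1.64 percentage points, against 0.731 within lines. With the nuclear copies added, all 9 genes were again lower, by 1.39 on the log2 scale for mt-Co1 (SE 0.289, adjusted p = 0.000241, edgeR). Among all genes, 23.1% were lower in IL-2146 in this contrast, and 23.1% with the copies added. The mt-Co1 to mt-Co3 ratio of fragments was 8.64 and 5.67 in these 2 mice against at most 3.67 in the other 53, so the genes did not fall by the same factor.

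The summed levels of the nuclear-encoded partners of these genes were not low in IL-2146. The summed FPKM of 35 nuclear subunits of complex I was 4139 and 3849 in its mice, against a median of 2979, which are ranks 54 and 52 of 55 from the lowest. Ranks were 51 and 48 for 4 subunits of complex II, which has no mitochondrially encoded subunit, and 54 and 52 for 9 subunits of complex III. They were 53 and 52 both for 12 nuclear subunits of complex IV and for 16 of the ATP synthase. Genes for the processing, stability and polyadenylation of mitochondrial RNA had their highest summed FPKM in these mice (379 and 376, median 300), but single genes went both ways. Much of these sums came from Hsd17b10, a subunit of the enzyme that cuts transfer RNA 5′ ends, at 183 and 154 (median 99.8). Lrpprc, which stabilises the messengers, was at 15.4 and 18.5 (median 23.4) and Pnpt1 at 1.89 and 4.78 (median 8.29). In mouse 4414, Pnpt1, Mtpap (3.41), Rg9mtd1 (2.86), Fastkd2 (2.73) and Pde12 (1.66) had their lowest FPKM of all 55 mice. Hsd17b10, Elac2 (9.82) and Tbrg4 (15.8) had their highest in the same mouse. Genes for mitochondrial DNA replication and transcription summed to 147 and 164 (median 151), with Tfam, which packages mitochondrial DNA and activates its promoters, at 9.53 and 18.5 (median 18.8), and Tfb2m, a transcription factor, at 5.41 and 10.0 (median 10.7). In mouse 4414, Tfam, Tfb2m, Ssbp1 (12.9) and Mterfd3 (0.58) were at their lowest of all mice. Polrmt, the mitochondrial RNA polymerase (8.26), Polg2 (5.57) and Top1mt (15.0) were at their highest there. These genes of the 2 lists were named after their values were seen. Summed over their list, regulators of mitochondrial biogenesis stood at 29.2 and 31.3 (median 27.2). Markers of some cell types differed in these mice. The endothelial markers had their lowest summed FPKM in these mice (11.6 and 12.1, median 30.7), as did the stellate cell markers (2.77 and 3.78, median 12.9), while the hepatocyte markers were at 84396 and 69535 (median 56961). In mouse 4414, Lyve1, an endothelial marker, was at 0.01 FPKM, and no other endothelial or stellate marker was below 0.1. The erythroid markers were at 3405 and 1832 (median 1363). The Kupffer and leukocyte markers were at 63.3 and 50.3 (median 56.7), ranks 35 and 25 of 55. The cholangiocyte markers were at 22.8 and 18.4 (median 27.5), ranks 19 and 10, and most of these sums was Spp1 (21.3 and 17.1). The part of these differences in the low mitochondrial share was not tested.

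Outside IL-2146, few contrasts of 1 line against the rest passed, and most were of mt-Co2. Over all 21 contrasts, 5 of 189 tests of the 9 genes were higher and 12 lower, 9 of them in IL-2146, where 10.9% and 7.18% of the tests of all genes were. As deposited, mt-Co2 was lower in IL-219 (log2 fold change −0.77, adjusted p = 0.012, edgeR), IL-1061 (−0.66, adjusted p = 0.0319) and IL-2680 (−0.61, adjusted p = 0.0386). It was higher in IL-519 (0.61, adjusted p = 0.0204, edgeR), IL-611 (0.61, adjusted p = 0.00497), IL-4457 (0.55, adjusted p = 0.0152) and IL-785 (0.45, adjusted p = 0.0347). The only other call was mt-Nd4 in IL-670 (0.49, adjusted p = 0.0487, edgeR). None of the 7 calls of mt-Co2 outside IL-2146 remained when Gm13341 and the other copies were added. Then 2 tests were higher and 9 lower, all 9 in IL-2146, where 10.9% and 7.18% of the tests of all genes were. The 2 were both in IL-670, mt-Cytb (0.59, adjusted p = 0.0371, edgeR) and mt-Nd4 (0.49, adjusted p = 0.0484), and 10.3% of all genes were higher in that line.

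**Figure D3:**
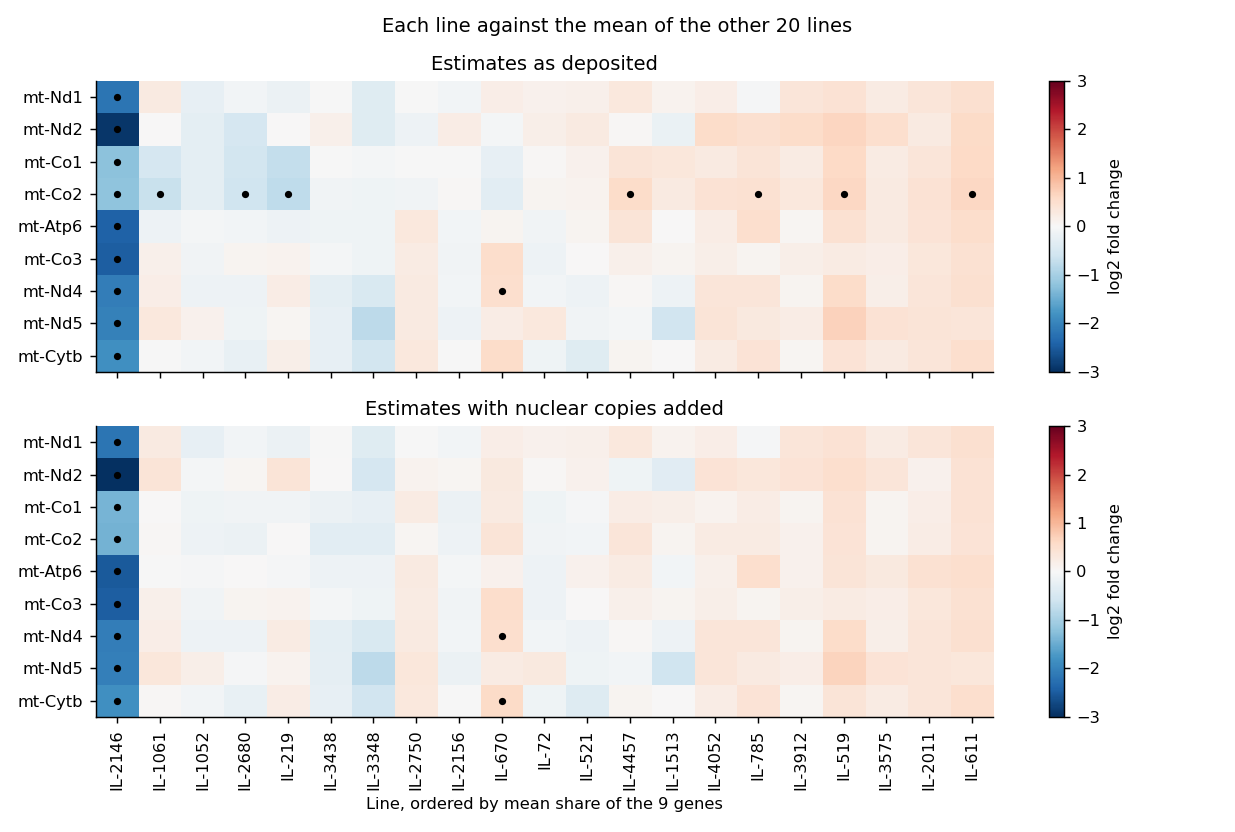
Log2 fold change of each of the 9 genes in each line against the mean of the other 20 lines, with estimates as deposited and with the nuclear copies added, for 21 lines ordered by mean share; marks show adjusted p under 0.05 in edgeR. All 9 genes are lower in IL-2146 in both panels, and the 7 marks of mt-Co2 in other lines are present as deposited only.

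Since IL-2146 is part of the mean each line is set against, the contrasts were repeated without it. As deposited, 10 of 180 tests were then higher and 10 lower, where 10.5% and 6.69% of the tests of all genes were. With the copies added as well, 5 were higher and 3 lower, where 10.6% and 6.77% of the tests of all genes were. The lower ones were mt-Nd5 (log2 fold change −0.90, adjusted p = 0.0247, edgeR) and mt-Cytb (−0.66, adjusted p = 0.00537) in IL-3348, and mt-Cytb in IL-521 (−0.45, adjusted p = 0.0377). The higher ones were mt-Co1 in IL-519 (0.38, adjusted p = 0.0338, edgeR) and IL-611 (0.35, adjusted p = 0.0174), mt-Cytb in IL-611 (0.41, adjusted p = 0.0157) and IL-670 (0.50, adjusted p = 0.00204), and mt-Co3 in IL-670 (0.42, adjusted p = 0.019). Calls of the 9 genes were no more frequent than those of all genes in either direction.

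The fragments given to the copies on chromosome 2 were either many or nearly none. More than 1000 fragments were given to Gm13340 in 16 mice of 8 lines, and 1.1 to 39.8 in each of the other 39 mice. In IL-219 it took 0.907% and 0.925% of all fragments, which were 39.5% and 39.8% of the fragments of mt-Co1 and Gm13340 together. In IL-670 these proportions of the pair were 36%, 35.9% and 36.3%, in IL-1061 37.2% and 37.1%, and in IL-2680 33% and 33.4%. The single mice of IL-1452 and IL-2693 had 33.9% and 32.8%. Mice of the same line thus had nearly equal proportions in these lines.

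In IL-1052 and IL-2750, the mice of 1 line did not resemble each other. In IL-1052, Gm13340 held 34% of the pair in mouse 4302 and 4.22% in mouse 4303. In IL-2750 it held 38.4% in mouse 4429, 32.5% in mouse 4431 and 4.4% in mouse 4430. The mice 4303 and 4430, from different lines, resembled each other in a second respect, since the copies Gm13341 and Gm13339, which took 0.0161% to 0.284% of fragments in the 3 mice 4302, 4429 and 4431, took at most 0.000115% in them. Mouse 4429 departed from 4302 and 4431 in turn, since Gm13341 held 20.4% of the fragments of mt-Co2 and Gm13341 in it, against 34.5% and 38% in the other two. For Gm13340, no proportion of its pair between 4.4% and 32.5% was seen in any mouse.

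**Figure D4:**
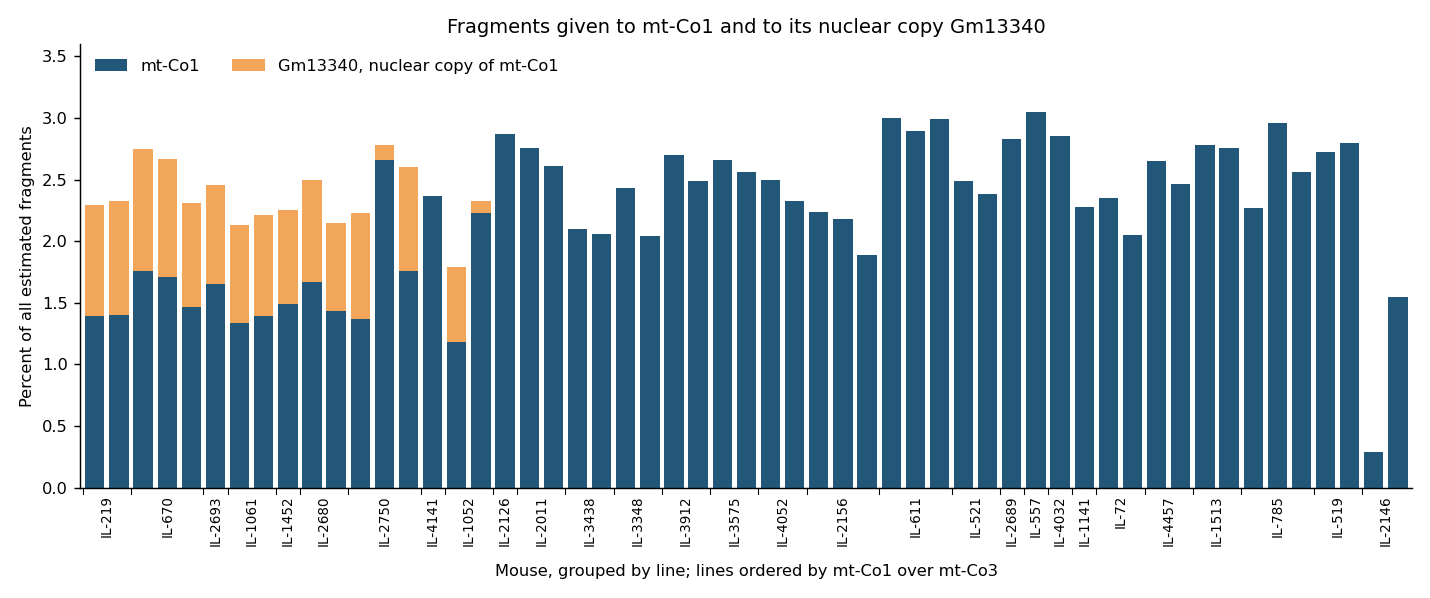
Stacked bars of the percent of all estimated fragments given to mt-Co1 (blue) and to its nuclear copy Gm13340 (orange), 1 bar per mouse, with lines ordered by the ratio of mt-Co1 to mt-Co3. The orange part is visible in 16 mice and holds 32.5% to 39.8% of the bar in 14 of them, against 4.22% and 4.4% in mice 4303 and 4430.

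Adding the copies narrowed the mt-Co1 to mt-Co3 ratio. As deposited it ran from 1.5 (mouse 4473, IL-670) to 3.67 (mouse 4303, IL-1052) over the 53 mice outside IL-2146, a 2.45-fold range. With the copies added it ran from 2.33 to 3.83, a 1.64-fold range, with both ends in IL-1052 (mice 4302 and 4303). For mt-Co2, Gm13341 held 47.7% and 47.5% of the pair in IL-219 and 44.7% and 44.8% in IL-1061, and 34.6% and 33.9% in IL-2680. For mt-Nd2, Gm13339 held 28.8% and 29.6% of the pair in IL-219, 28.6% and 28.8% in IL-1061, and 37.9% and 37% in IL-2680. The copy that took the larger part thus differed between these lines, and differed little between mice of a line.

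The copies on chromosome 4 separated the same mice by their proportion. Both the copy of mt-Cytb, Gm11410, and that of mt-Nd5, Gm11407, took more than 10 fragments in 14 mice, and at most 2.0 and 4.4 in the others. The ratio of Gm11410 to Gm11407 was 1.66 and 1.75 in IL-1061, 2.09 and 1.65 in IL-219, and 2.65, 1.82 and 2.78 in IL-670. It was 0.212 in IL-1452, 0.241 and 0.227 in IL-2680, 0.142 in IL-2693, 0.18 in mouse 4302 of IL-1052, and 0.113 and 0.227 in mice 4429 and 4431 of IL-2750. Of these 14 mice none lay between 0.241 and 1.65. The amounts were small beside the members, since Gm11410 never took over 0.026% of fragments and Gm11407 never over 0.0274%.

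**Figure D5:**
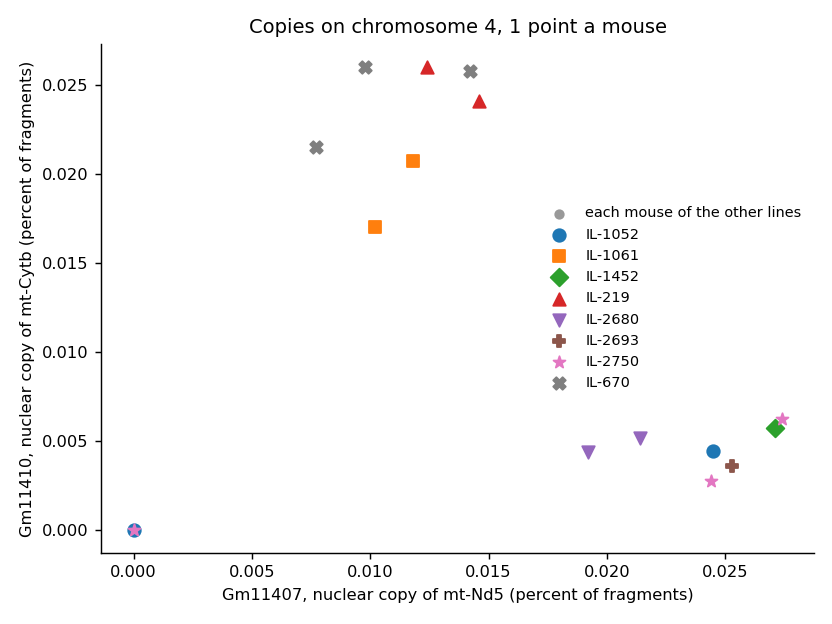
Percent of all estimated fragments given to Gm11407 (horizontal axis) and to Gm11410 (vertical axis), nuclear copies of mt-Nd5 and mt-Cytb on chromosome 4, with 1 point per mouse. The mice of IL-1061, IL-219 and IL-670 lie on a steep band with ratios of 1.65 to 2.78, and those of IL-1452, IL-2680, IL-2693, IL-1052 and IL-2750 on a flat band with ratios of 0.113 to 0.241.

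The copy of mt-Atp6 behaved differently. In all 55 mice Gm10925 took many fragments, with a median share of 0.381% against 0.379% for mt-Atp6, and in no mouse was it under 0.0416%. The division varied between mice, from 0.154% for Gm10925 against 0.258% for mt-Atp6 in mouse 4546 to 0.0416% against 0.0134% in mouse 4414. Of the windows of 50 bases of this pair 85.5% are identical, as is the stretch shown above, so the level of mt-Atp6 is known only together with that of Gm10925.

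Ratios among the 9 genes, which cancel depth and the total mitochondrial share, also varied by line. Each gene was set over the geometric mean of the 9 genes on the log2 scale. The intraclass correlation of this ratio was 0.71 for mt-Co2 (p = 1e-05, one-sided permutation test), 0.658 for mt-Co3, 0.608 for mt-Nd2, 0.573 for mt-Cytb, 0.558 for mt-Nd1, 0.518 for mt-Co1 (p = 0.0024, permutation test) and 0.368 for mt-Nd4 (p = 0.0288, permutation test). The ratios of mt-Nd5 (0.316, p = 0.0528, permutation test) and mt-Atp6 (0.309, p = 0.0575, permutation test) did not pass as deposited. Without IL-1052 and IL-2750 all 9 passed, with 0.805 for mt-Co1 (p = 1e-05, permutation test), 0.617 for mt-Nd5 (p = 0.00044) and 0.538 for mt-Atp6 (p = 0.00325). With mt-Atp8, Gm10925 and the other copies added, mt-Atp6 passed as well (0.514, p = 0.00287, permutation test).

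Adding the nuclear copies moved mt-Co1 most. With the copies its ratio had an intraclass correlation of 0.175 (p = 0.193, permutation test), and 0.0417 (p = 0.423, permutation test) without IL-2146 as well. That of mt-Co2 was 0.432 (p = 0.0122, permutation test) with the copies and that of mt-Nd4 0.173 (p = 0.195, permutation test), the latter 0.385 (p = 0.0249) without IL-2146. That of mt-Nd1, which has no copy, was 0.671 (p = 5e-05, permutation test) and 0.725 (p = 1e-05) in the same fits. Of the 36 pairs, the ratio most alike within lines was mt-Co1 to mt-Cytb, with an intraclass correlation of 0.824 as deposited and 0.755 with the copies added. The least alike was mt-Nd4 to mt-Cytb, at −0.115 and −0.101. Over all pairs the median was 0.51 as deposited and 0.393 with the copies added. Between mt-Nd4 and mt-Nd1, both without a copy, the ratio of fragments was 0.794 in the lowest mouse (4234, IL-2126), 1.43 in the median mouse and 2.25 in the highest (4414, IL-2146).

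The remaining genes of the mitochondrial genome include 4 that encode proteins. The small subunit gene mt-Atp8, which overlaps mt-Atp6 by 43 bases, took a median of 0.0546% of fragments, but at most 0.000417% in 4 mice, both mice of IL-2146 (0.000342% and 0.000105%), mouse 4429 of IL-2750 and mouse 4546 of IL-1513. The next mouse stood at 0.0123%. The overlap is shown because it belongs to both genes, but it is shorter than a read of 50 bases, so no read lies wholly within it. Gm10925 is identical to mt-Atp8 over 180 of its 204 bases. As for mt-Atp6, the level of mt-Atp8 apart from Gm10925 is therefore not known.
mt-Atp8 and mt-Atp6 (chrM:7927-7969): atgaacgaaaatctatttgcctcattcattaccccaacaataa
The complex I gene mt-Nd3 took 0.00343% in the lowest, 0.0594% in the median and 0.0992% in the highest mouse. The gene mt-Nd6, encoded on the opposite strand, took 0.00537%, 0.0779% and 0.142%, and since strand was not used in the estimation, reads antisense to it cannot be told apart from its own. The values of mt-Nd4l were 0.00171%, 0.0335% and 0.0506%, and its nuclear copy Gm10222, identical in sequence, had the same estimate, within 0.015 fragments, in 55 of 55 mice. In IL-2146 these genes were lower as well, with log2 fold changes of −3.28 for mt-Nd3 (adjusted p = 7.07e-07, edgeR), −3.01 for mt-Nd6 (adjusted p = 6.16e-07) and −2.19 for mt-Nd4l (adjusted p = 5.61e-05).

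The ribosomal RNAs of the mitochondrion were scarce in these poly(A) libraries. The share of mt-Rnr2, the large ribosomal RNA, was 0.0109% in the lowest, 0.09% in the median and 0.312% in the highest mouse, and that of mt-Rnr1, the small one, 0.00442%, 0.0449% and 0.132%. In IL-2146 both fell with the messengers, with log2 fold changes of −2.78 for mt-Rnr1 (adjusted p = 5.68e-07, edgeR) and −2.99 for mt-Rnr2 (adjusted p = 6.63e-07). In other lines they differed where few of the messengers did. In IL-1513, mt-Rnr2 took 0.225% and 0.312%, with a log2 fold change of 1.54 against the other lines (adjusted p = 2.82e-05, edgeR). In IL-611, one of the lines highest in the 9 genes, mt-Rnr2 took 0.062%, 0.0446% and 0.0463%, a log2 fold change of −0.84 (adjusted p = 0.0325, edgeR). In IL-785 it took 0.0468%, 0.0449% and 0.0311%, a log2 fold change of −1.16 (adjusted p = 0.00255, edgeR). The 22 transfer RNA genes had 0 to 17 fragments in all per mouse.

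The share of the 9 genes had no detectable relation to age, body weight or depth over the 29 line means. Pearson's r was −0.071 for age, −0.049 for body weight and −0.0932 for depth (adjusted p = 0.8 for each of 3 relations, two-sided permutation test). Spearman's rho was −0.0227, −0.114 and 0.0586 (adjusted p = 0.906 for each, permutation test). Without the 2 lines farthest from the median of each measure, r was −0.0131, −0.0402 and 0.088. With IL-2146 left out and then the 2 farthest lines of the rest, it was 0.0312, −0.168 and 0.439, values that were not tested. With the nuclear copies added to the share, Spearman's rho for body weight was −0.303 (adjusted p = 0.335, permutation test). A further property of the libraries was set against the share of the 9 genes, the difference between the annotated and the effective transcript length. This difference grows with fragment length and ran from 38.8 bases (mouse 4430) to 97.2 bases (mouse 4467) with a median of 72.4. Over the line means its Spearman's rho with the share of the 9 genes was 0.291, and with the mt-Co1 ratio, copies added, −0.53. Within the 2 mice of IL-2146 it was 54.4 and 58.2 bases. On residuals from this difference, the intraclass correlation of the share of the 9 genes was 0.388 (p = 0.021, permutation test) in place of 0.705. That of FPKM was 0.144 for mt-Nd1 (p = 0.24, permutation test), 0.202 for mt-Co3 (p = 0.158), 0.25 for mt-Nd4 (p = 0.104) and 0.169 for mt-Atp6 (p = 0.201), which no longer passed, while mt-Co2 (0.558), mt-Co1 (0.519), mt-Cytb (0.464), mt-Nd5 (0.398) and mt-Nd2 (0.346) passed. Since this difference also varied between lines, its part and that of the line cannot be told apart.

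Nuclear genes of the same pathway, taken from fixed lists, differed among lines in nearly every case. The F test called all 35 nuclear subunits of complex I, all 4 subunits of complex II, all 9 of complex III, all 12 of complex IV and all 16 of the ATP synthase, where 88.5% of all genes were called. Median intraclass correlations of FPKM in these lists were 0.595, 0.558, 0.639, 0.572 and 0.646. In complex I, Ndufa7 (0.822) and Ndufs4 (0.811) were highest and Ndufs6 (0.326) and Ndufs1 (0.358), the core iron-sulfur subunit, lowest. In complex II, Sdhb (0.617) and Sdhd (0.608) stood above Sdha and Sdhc (0.509 each). In complex III, Uqcr10 (0.75) and Uqcrb (0.735) were highest and Uqcrq (0.398) and Uqcrh (0.574) lowest. In complex IV these were Cox7c (0.747) and Cox7b (0.734) against Cox7a1 (0.319) and Cox5a (0.42), and in the ATP synthase Atp5f1 (0.747) and Atp5g1 (0.724) against Atp5k (0.497) and Atp5j (0.52).

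Of 13 genes for the replication and transcription of mitochondrial DNA, 12 were called. There Mterfd1 (0.848) and Peo1, the mitochondrial helicase (0.671), had the highest intraclass correlations. Tfam had 0.223, and Ssbp1, its single-strand binding protein, 0.0656 (adjusted p = 0.112 in edgeR's F test). All 20 genes for the processing, stability and polyadenylation of mitochondrial RNA were called, with Lrpprc (0.791) and Pnpt1 (0.715) highest and Hsd17b10 (0.439) and Ptcd2 (0.525) lowest. Of 7 regulators of mitochondrial biogenesis 6 were called, Nrf1 being the exception (adjusted p = 0.153, edgeR), and the 2 with an intraclass correlation were Esrra (0.627) and Gabpa (0.339).

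Over the 29 line means, the level of these nuclear genes did not follow the share of the 9 genes. The median Spearman's rho, with each gene as a share of the nuclear fragments, was 0.0113 for complex I (above 0 in 22 of 35 genes), 0.0607 for complex II (2 of 4), 0.0379 for complex III (5 of 9), 0.133 for complex IV (9 of 12) and 0.0441 for the ATP synthase (10 of 16). It was −0.0291 for replication and transcription (6 of 13), 0.0881 for RNA processing (13 of 20) and 0.106 for the regulators (4 of 6). The median over all 10317 genes with a mean FPKM of at least 1 was 0.0621, with quartiles of −0.0854 and 0.197. These points share libraries and depth, and IL-2146 is 1 of the 29.

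The genes most like the 9 genes by this measure were Meg3 (0.765) and Rian (0.70), noncoding RNAs of the same imprinted cluster, then Agxt2 (0.691), a mitochondrial aminotransferase, Ube2e1 (0.679) and Smndc1 (0.675). With the nuclear copies added to the share, rho was 0.692 for Meg3, 0.669 for Rian and 0.42 for Agxt2. The most opposed were Gm11752 (−0.661), Nelf (−0.655), Gm12265 (−0.636), Gm11407 (−0.593) and Klf1, an erythroid transcription factor (−0.592). Of these Gm11407 is the copy of mt-Nd5 described above, and its rho was −0.265 with the copies added. Mean FPKM was 2.03 for Meg3, 1.27 for Rian and 1.18 for Klf1, so these are weakly expressed genes.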

How the data were processed

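Livers of 55 male mice of 29 CC lines were analysed, with lines taken from the labels. Libraries of poly(A) RNA were sequenced, and the authors aligned the reads with Bowtie 2 to the mouse transcriptome (mm9) and estimated expression with RSEM 1.2.18. The deposited estimated counts, which were divided between genes that share reads, were used for shares, ratios and tests, and the deposited FPKM for levels, with the deposited TPM as an alternative. The deposited effective lengths were used in bases, and the isoform files were not used. Of 37620 gene IDs, 37205 were named through an annotation of the same build. Nuclear copies were found by aligning transcripts with blastn 2.17.0. Copies were added to the gene they copy as an alternative chosen after seeing the data, as were leaving out IL-2146, the length covariate, and both together. Where copies were added to single genes, mt-Atp8 was added to mt-Atp6 as well.

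Estimated counts were rounded and tested with edgeR 4.0.16 (TMM factors, filterByExpr, quasi-likelihood F test, Benjamini-Hochberg adjustment, threshold 0.05), which was checked on simulated data, as was the intraclass correlation. DESeq2 1.42.0 was an alternative. Intraclass correlations were computed on van der Waerden scores of FPKM binned to the maximum over 200 with a floor of 0.5, for genes with a maximum FPKM of at least 2 and at least 12 levels. Permutation tests used 100000 permutations. Python 3.11.15 with numpy 2.4.6, scipy 1.17.1 and pandas 2.3.3, and R 4.3.3, were used. Depth was 20542671 to 33953036 fragments, and intervals cover counting error only. Nothing in the labels says whether mice of a line were littermates. The 9 genes and all gene lists were chosen with earlier results of these data known. Named were the 9 genes, the other genes of the mitochondrial genome, the nuclear copies, the 2 genes of each nuclear list with the highest and lowest intraclass correlation, the 5 nuclear genes most and least like the share of the 9 genes, and the 3 highest and lowest lines with those in which at least 3 of the 9 genes were called.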

Additional observations from a re-analysis of the deposited data

How the results depend on the processing

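No paired analysis was possible because the labels give no replicate numbers that the lines share. Of the values that answer a comparison, 79 kept their direction and their side of the threshold or stayed within 1.5 times, 11 counts moved further, 5 changed sign and 1 no longer passed. The intraclass correlations of single genes were tallied apart. Of these, 143 stayed on their side of the threshold, 18 no longer passed and 10 came to pass. The number of the 9 genes called among lines (9 as reported) was 5 without IL-2146 and 3 without IL-2146 and with the copies added, and 8 to 9 with each mouse left out in turn, the number of all genes called being 13318 to 13832. The count of higher members in single lines (5 as reported) was the least stable. It was 2 with total counts, 2 with nuclear counts only, 3 with no filter, 11 without IL-1052 and IL-2750, 2 with the copies added and 10 without IL-2146. With 1 mouse left out it was 3 to 30, at 30 without mouse 4415 and 17 without mouse 4414 of IL-2146, 9 and 13 without mice 4546 and 4547 of IL-1513, 8, 8 and 9 without mice 4429, 4430 and 4431 of IL-2750, and 3 without mouse 4266 of IL-4457 or mouse 4272 or 4477 of IL-785. The lone mouse left in a line is assumed there to vary like the others. The count of lower members (12) was 3 without IL-2146 and with the copies added, and 11 to 16 with each mouse left out. The 9 genes with an intraclass correlation of FPKM that passed were 4 on log2 values and 5 on residuals from the effective-length difference, and 8 to 9 with each mouse left out, mt-Atp6 being lost in 3 of 55. The share of the 9 genes had 0.575 on log2 values (p = 0.142, permutation test) and 0.663 to 0.783 with each mouse left out. The ratios that passed (7) were 6 to 9. Pearson's r changed sign, without passing, for body weight over mice (0.0249) and over lines with at least 2 mice (0.0599), and for depth without the 2 farthest lines (0.088), over lines with at least 2 mice (0.0722) and without IL-2146 (0.144). With each mouse left out, r was −0.139 to −0.0223 for age, −0.112 to 0.0223 for body weight and −0.188 to 0.000212 for depth. The causes were not tested. Lines of 1 mouse give no spread of their own, and the level of mt-Atp6 apart from Gm10925 cannot be resolved from these estimates.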

Other observations

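The mice 4546 and 4547 of IL-1513, which share line and age, differed in some of the 9 genes and not in others. The share of mt-Co1 was 2.78% in 4546 and 2.76% in 4547, and that of mt-Cytb 0.697% and 0.638%. The share of mt-Nd2 was 0.143% and 0.462%, that of mt-Nd4 0.317% and 0.616%, that of mt-Nd5 0.132% and 0.27%, and that of mt-Nd1 0.251% and 0.508%. Among the 53 mice outside IL-2146, mouse 4546 had the lowest FPKM of mt-Nd2 (1464), mt-Nd4 (2407) and mt-Nd5 (751). Its mt-Nd6 took 0.0202% against 0.0684% in 4547. It is also 1 of the 4 mice in which mt-Atp8, not resolved from Gm10925, was given nearly no fragments. These 4 mice, 4414, 4415, 4429 and 4546, had differences of 54.4, 58.2, 59.7 and 60.8 bases between annotated and effective length, below the median of 72.4, though mouse 4430, at 38.8 bases, was not among them.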
